A study of Mus musculus with 48 samples.

Results

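Palmitate, a saturated fatty acid, was compared with oleate, a monounsaturated one, as the fat of a diet whose carbohydrate was sucrose. The members are the 8 libraries titled sucrose/palmitate and the 9 titled sucrose/oleate, 17 of the 48 libraries of the series, each from epididymal white adipose tissue of a C3H/HeOuJ mouse. Of the 547 immune genes on the NanoString nCounter Mouse Immunology panel, which counts barcoded probes bound to RNA, 491 had a mean count of at least 10 and were tested. The mice had free access to their diet for 6 months, and all custom diets took 42% of calories from carbohydrate and 42% from fat. Chow was the control diet (n = 8). The other custom diets used for comparison were starch/palmitate (n = 7) and starch/oleate (n = 9). The series also holds Western diet libraries (n = 7), which were not compared here. The labels give no sex, age at the start, body weight or cage, and they do not say whether any samples were pooled.

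Epididymal fat is a visceral depot in which macrophages, lymphocytes and mast cells lie between the adipocytes. In obesity, macrophages that carry Itgax and Trem2 gather around stressed adipocytes, while resident macrophages that carry scavenger receptors and lectins lie along vessels in lean tissue. Transforming growth factor beta acts through a pair of receptor kinases and drives fibroblasts to deposit matrix.

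Total counts of the gene probes ran from 396391 to 825470 in the sucrose/palmitate libraries and from 455563 to 722254 in the sucrose/oleate libraries. All levels below are counts scaled to the geometric mean of 14 reference genes, a scaling that holds their average difference near 0. By edgeR's test 0 of 14 differed between the diets and 3 had an unadjusted p below 0.05, the lowest of them Gusb, a lysosomal enzyme (-0.60 ± 0.20, adjusted p = 0.0717). Without Gusb among the reference genes the Ccl20 and Tlr5 calls were lost. The adipocyte markers Cfd, Pparg and Cd36 were measured in every library, with a summed level of 63017 to 141135 on sucrose/palmitate and 68844 to 105137 on sucrose/oleate. A measure of the assay itself moved with the diets. The ratio of the counts of the spiked control RNAs A and B, added in fixed amounts to each reaction, ran from 2.99 to 3.56 with palmitate and from 2.92 to 3.07 with oleate (exact permutation test of the means, two-sided, p = 0.000658). Within the palmitate group, replicates 1 to 4 ran from 3.31 to 3.56 and replicates 5 to 8 from 2.99 to 3.15. Only 1 palmitate library, replicate 6, lay within the oleate range, so diet and ratio could be separated only in part.

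The fats differed in 18 of the 491 genes, which is 3.67% of those tested (edgeR quasi-likelihood test, adjusted p below 0.05). With palmitate 11 genes were higher (2.24%) and 7 were lower (1.43%), and the median difference over all genes tested was -0.00 on the log2 scale. The lower genes, Lair1, Klra8, Tgfbr1, Runx1, Tnfaip3, Plau and Itgb1, differed by 1.19-fold to 1.98-fold and across most libraries. Among the higher genes, Ccl24, Cd209g, Tlr5, Ccl20 and Il12a differed across most libraries, whereas Ptgs2, Stat4, Ncam1, Marco, Cd46 and C8g owed much of their difference to 1 or 2 libraries. In 0 of 491 genes (0%) did the ranges of the 2 groups not overlap. At an unadjusted p below 0.05 there were 110 genes, 58 higher and 52 lower. In this whole tissue, fewer cells of a type and less RNA per cell cannot be told apart.

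With each of the 17 libraries left out in turn, between 2 and 18 of the 18 genes were still called; the fewest remained without sucrose/oleate replicate 4 (2 genes) or replicate 8 (3 genes) and without sucrose/palmitate replicate 4 (4 genes). All 18 kept their direction without oleate replicate 4 or 8, and their median size was then 0.86. With the ratio of controls A and B as a covariate, 1 of the 18 genes, Ccl24, was called, while 16 of 18 kept their direction and the median size of the 18 differences went from 0.87 to 0.58 (log2) as the median SE went from 0.23 to 0.30. With only the 4 sucrose/palmitate libraries whose ratio was below 3.2, 0 of 491 genes were called by edgeR (57 at an unadjusted p below 0.05), and 16 of the 18 again kept their direction, with a median size of 0.64 and a median SE of 0.27. This last fit also leaves 4 of 8 palmitate libraries (replicates 5 to 8), so the ratio and the number of libraries cannot be told apart there. It also drops the highest palmitate library of Ptgs2, Stat4, Ncam1, Marco, Cd46 and C8g.

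**Figure D1:**
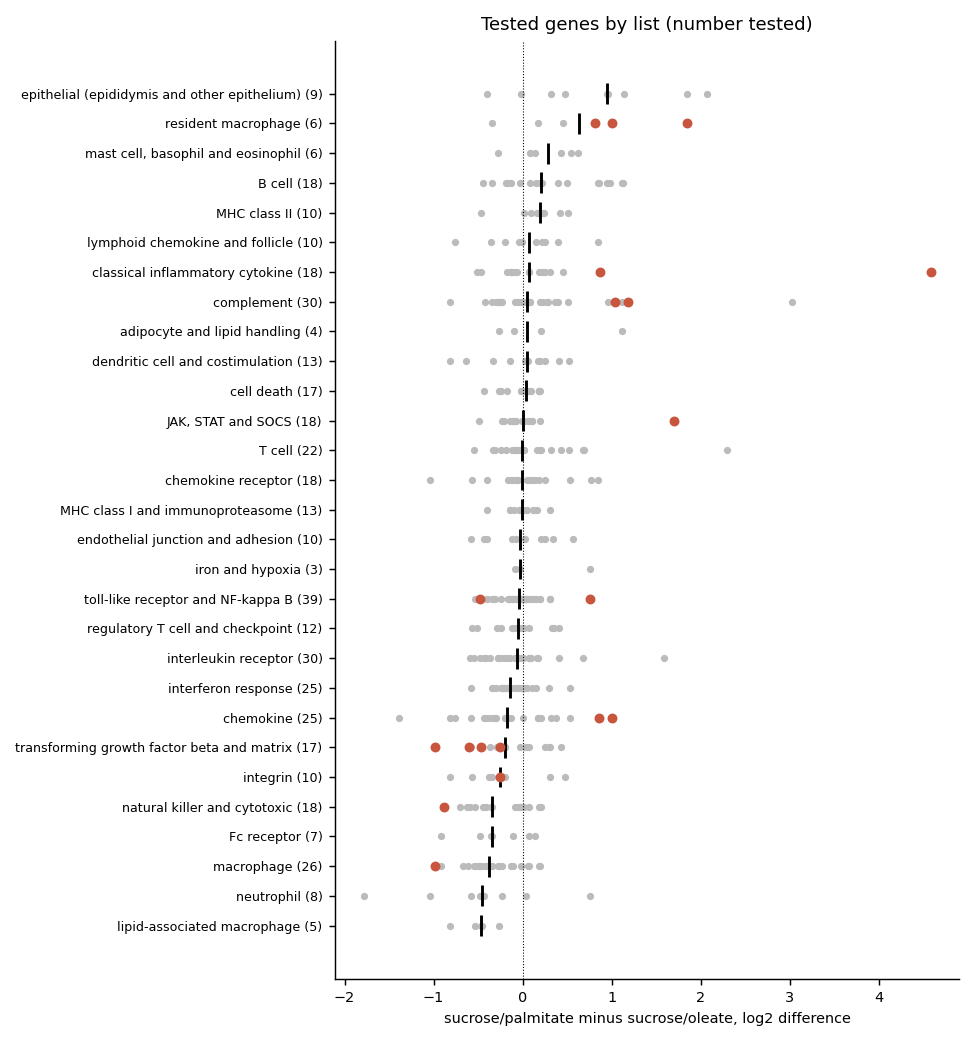
Difference between sucrose/palmitate and sucrose/oleate (log2, horizontal axis) for the tested members of each gene list (rows, with the number tested). Each point is a gene, red where it passed the adjusted threshold and grey where it did not, and the black tick is the list's median. The highest median is that of the epithelial list (0.94), none of whose 9 members passed, and the lowest that of the lipid-associated macrophage list (-0.46).

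The gene lists were chosen with earlier results of these data known, so their counts of calls only describe. Over all 491 genes tested 2.24% were higher and 1.43% lower with palmitate, and each list's counts below stand beside these shares. The transforming growth factor beta and matrix list gave the most calls. Of its 17 members 4 were lower with palmitate (Lair1, Tgfbr1, Plau and Itgb1) and 0 were higher, with a median of -0.20 against -0.00 over all genes tested. DESeq2 called 5 of the 17 lower and limma 4; with the assay ratio as a covariate the count was 0.

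Tgfbr1 encodes the type I receptor kinase for transforming growth factor beta. Its scaled count was 1207 at the lowest, 1529 at the median and 2113 at the highest on sucrose/palmitate, against 1830.1, 2461 and 2940.5 on sucrose/oleate. Of the 8 palmitate libraries 6 lay below every oleate library, and the 4 lowest (replicates 2, 3, 4 and 8) held 1352 counts or fewer. The means were 1601 ± 352 (SD, n = 8) and 2436 ± 403 (SD, n = 9), a difference of -0.61 ± 0.13 (log2, SE; adjusted p = 0.00783). This call held with each of the 17 libraries left out in turn (adjusted p up to 0.0280), but not with the assay ratio as a covariate (-0.49, adjusted p = 0.160).

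Lair1, a receptor on immune cells that binds collagen and dampens their activation, had the most negative difference among the 18 called genes. On sucrose/palmitate its scaled count ran from 155 through a median of 366 to 563, and on sucrose/oleate from 500.4 through 698 to 914. All 8 palmitate libraries lay below the oleate mean and 6 lay below every oleate library; replicates 1 and 6 were the highest of the palmitate group. The difference was -0.99 ± 0.26 (log2, SE; adjusted p = 0.0284), a 1.98-fold lower level. The call was lost without sucrose/palmitate replicate 3, 4 or 8 or sucrose/oleate replicate 4, 7 or 8 (adjusted p up to 0.0629).

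Plau, the urokinase that activates plasminogen in matrix breakdown, ran from 1268 through 1908 to 2397 with palmitate and from 2026 through 2649.7 to 2993 with oleate. Its 2 highest palmitate libraries, replicates 1 and 3, lay inside the oleate range and the other 6 below it. The difference was -0.47 ± 0.13 (log2, SE; adjusted p = 0.0346), and it did not pass without sucrose/palmitate replicate 4, 5 or 8 or sucrose/oleate replicate 1, 4, 7 or 8 (adjusted p up to 0.0987). Itgb1, the integrin beta 1 chain through which cells hold to collagen and fibronectin, was also lower. Its counts were 7018, 8092 and 9056 (lowest, median, highest) with palmitate and 8900.1, 9700.3 and 10195 with oleate. Only 1 palmitate library, replicate 3, lay above the lowest oleate library, and the difference was small, -0.25 ± 0.06 (log2, SE; adjusted p = 0.0266; 0.0591 at most, without sucrose/palmitate replicate 4 or sucrose/oleate replicate 4). Pdgfb, a growth factor for pericytes and fibroblasts, and Cd44, a hyaluronan receptor, had differences of -0.37 ± 0.12 and -0.58 ± 0.24 that did not pass (adjusted p = 0.0584 and 0.133). Fn1, which encodes fibronectin, had a difference of 0.30 ± 0.22 (adjusted p = 0.404).

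Runx1, a transcription factor of blood cell development, and Tnfaip3, the A20 protein that dampens NF-kappa B signalling, were also lower with palmitate. Runx1 ran from 298 through 481 to 763 against 569.7, 788 and 861 with oleate, with 6 of 8 palmitate libraries below every oleate library and replicates 1 and 6 within the oleate range. Its difference of -0.60 ± 0.18 (adjusted p = 0.0471) was the closest to the threshold and was lost in 12 of the 17 fits with a library left out, namely sucrose/palmitate replicates 2, 3, 4, 7 and 8 and all sucrose/oleate replicates but 5 and 6 (adjusted p up to 0.110). Tnfaip3 ran from 296 through 355 to 459 against 444, 518 and 632, and 6 of 8 palmitate libraries again lay below all of the oleate ones. The difference was -0.48 ± 0.13 (adjusted p = 0.0284; up to 0.0629 without sucrose/palmitate replicate 4 or 8 or sucrose/oleate replicate 4, 7 or 8). In the list of 39 tested genes of toll-like receptors and the NF-kappa B pathway, Tnfaip3 was the 1 lower and Tlr5 the 1 higher gene.

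**Figure D2:**
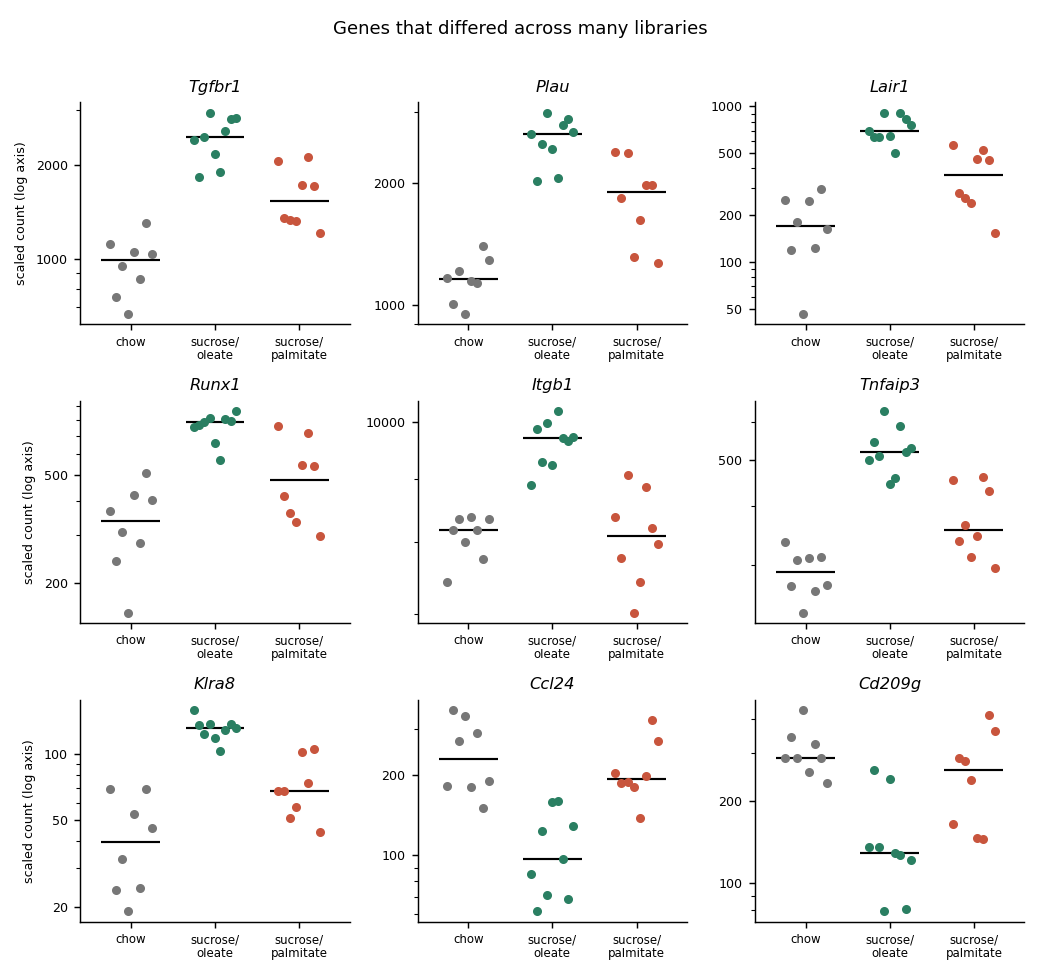
Scaled counts (log axis, 1 panel per gene) of the 9 called genes whose difference was spread over many libraries, for chow (8), sucrose/oleate (9) and sucrose/palmitate (8). Each point is a library and each horizontal line a group median. For the 7 lower genes the palmitate median lies below the oleate median, and for Ccl24 and Cd209g above it.

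The bases before the transcription start are shown for 4 of the called genes, Lair1 and Tgfbr1 among the lower and Cd209g and Marco among the higher. They are the 250 bases upstream of the RefSeq start in build GRCm38.p6, written 5′ to 3′ on the gene's strand, and come from the reference strain, not from C3H/HeOuJ. Lair1 lies at chr7:4063205-4063454 on the minus strand, Tgfbr1 at chr4:47352972-47353221 on the plus strand (the first of 2 starts listed), Cd209g at chr8:4134486-4134735 on the plus strand and Marco at chr1:120505025-120505274 on the minus strand. Capitals mark a match to GAGGAA, the core of sites bound by the myeloid factor PU.1 (TTCCTC on the other strand), to TGANTCA, the site of AP-1, or to TGTGGT, the site of RUNX factors, each searched on both strands. The motifs were chosen with the results known, and a match or its absence describes only these letters.
Lair1: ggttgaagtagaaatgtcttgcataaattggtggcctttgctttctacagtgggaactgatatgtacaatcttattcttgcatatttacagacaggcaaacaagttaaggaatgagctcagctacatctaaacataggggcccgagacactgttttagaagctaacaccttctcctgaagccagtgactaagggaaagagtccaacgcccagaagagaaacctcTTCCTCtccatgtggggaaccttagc
Tgfbr1: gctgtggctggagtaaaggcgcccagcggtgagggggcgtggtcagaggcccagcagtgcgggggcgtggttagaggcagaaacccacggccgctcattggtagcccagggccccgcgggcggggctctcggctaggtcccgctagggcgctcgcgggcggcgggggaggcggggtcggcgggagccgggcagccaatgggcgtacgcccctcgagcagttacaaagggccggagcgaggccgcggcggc
Cd209g: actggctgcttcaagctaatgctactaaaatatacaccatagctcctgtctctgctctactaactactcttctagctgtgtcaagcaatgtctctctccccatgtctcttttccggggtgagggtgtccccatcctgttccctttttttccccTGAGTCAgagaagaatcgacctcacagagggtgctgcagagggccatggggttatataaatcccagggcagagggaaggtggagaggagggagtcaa
Marco: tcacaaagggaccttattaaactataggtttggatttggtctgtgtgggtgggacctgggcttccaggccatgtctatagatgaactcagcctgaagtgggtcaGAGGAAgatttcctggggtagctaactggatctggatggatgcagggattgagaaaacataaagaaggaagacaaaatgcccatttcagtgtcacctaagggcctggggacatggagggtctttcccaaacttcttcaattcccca
Lair1 and Marco each held 1 GAGGAA match and Cd209g 1 TGANTCA match, whereas none of the 3 motifs was found in the Tgfbr1 window shown, 74.8% of whose bases were G or C; the window of its other start held 1 GAGGAA match. A window was at hand for 15 of the 18 called genes. Counting every listed start, GAGGAA stood in 8 of these 15, in 35.9% of the 368 tested genes with a window and in 25.9% of all 27025 genes. TGTGGT stood in 4, in 17.9% of the tested and 15.9% of all genes, and TGANTCA in 3, in 10.9% of the tested and 7.82% of all genes. Whether the called genes differ from the tested ones was not tested.

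Of the 6 tested genes of resident macrophages, 3 were higher with palmitate than with oleate (Ccl24, Cd209g and Marco), 0 were lower and 3 did not pass, with a median of 0.63. Over all 491 genes 2.24% were higher and the median was -0.00. The Marco call rested largely on 1 library. DESeq2 called the same number, limma 2, and the fit with the assay ratio 1.

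Ccl24, the chemokine eotaxin-2 that attracts eosinophils, was the most stable of the higher genes. With palmitate its scaled counts were 139 at the lowest, 193 at the median and 323 at the highest, and with oleate 61.6, 96.9 and 159.7. Of the 8 palmitate libraries 7 lay above every oleate library, and the remaining one, replicate 5, was above the oleate mean. The difference was 1.00 ± 0.22 (log2, SE; adjusted p = 0.00783), and it passed with each of the 17 libraries left out (adjusted p up to 0.0285) and with the assay ratio as a covariate (1.28, adjusted p = 0.0167). Among the 4 palmitate libraries with a ratio below 3.2 it was 1.14 (adjusted p = 0.0530).

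Cd209g, a C-type lectin of the family of DC-SIGN, ran from 145 through 260.2 to 414 with palmitate and from 78.7 through 129 to 259.7 with oleate. The palmitate libraries fell into a higher set of 5 and a lower set of 3 (replicates 1, 5 and 6), and 2 oleate libraries, replicates 2 and 5, reached the level of the higher set. The difference was 0.81 ± 0.22 (adjusted p = 0.0328), and the call was lost without sucrose/palmitate replicate 3, 4, 7 or 8 or sucrose/oleate replicate 1, 4, 7 or 8 (adjusted p up to 0.0804). Marco, a scavenger receptor, was carried largely by sucrose/palmitate replicate 1 (540.4), with the other 7 libraries between 32.1 and 190.3 and the oleate libraries between 21.5 and 59.4. Its difference was 1.85 ± 0.51 (adjusted p = 0.0343); without that library it was 1.09 and did not pass (adjusted p = 0.133), nor did it without sucrose/palmitate replicate 7 or sucrose/oleate replicate 1, 4, 7 or 8. Cd163, the haemoglobin scavenger receptor, had medians of 602 and 362. Its difference of 0.46 ± 0.23 did not pass (adjusted p = 0.227), but sucrose/oleate replicate 2 held 1228 counts, and without it the difference was 0.79 and passed (adjusted p = 0.0210).

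Of the 26 tested members of the wider macrophage list 1 was lower with palmitate than with oleate (Lair1, already counted above) and 0 were higher. A negative difference was found for 22, and the median was -0.38. Over all 491 genes 251 differences were negative. Emr1, the F4/80 antigen, had medians of 2643 and 4184 with palmitate and oleate (-0.43 ± 0.25, adjusted p = 0.278), and the palmitate group held both the highest library (replicate 1, 5272) and the 5 lowest of the 17. Msr1, a scavenger receptor for modified lipoprotein, had medians of 727 and 1216 (-0.66 ± 0.26, adjusted p = 0.106). In the lipid-associated macrophage list edgeR called 0 of 5 members (2 with an unadjusted p below 0.05), as did DESeq2 and limma, and all 5 differences were negative. Itgax, the CD11c integrin, had medians of 3862 and 6826 (-0.82 ± 0.32, adjusted p = 0.106), and Trem2, a lipid receptor, 1244 and 1928 (-0.54 ± 0.29, adjusted p = 0.246).

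Among genes of natural killer cells, Klra8 was lower with palmitate. It belongs to the Ly49 receptors, a family of near-identical genes whose members vary between mouse strains, so which member the probe counted in C3H/HeOuJ is uncertain. Its scaled counts ran from 44.1 through 67.8 to 105 with palmitate and from 103 through 132 to 159 with oleate. All but 1 of the palmitate libraries lay below every oleate library. The difference was -0.89 ± 0.23 (log2, SE; adjusted p = 0.0284), lost without sucrose/palmitate replicate 3, 4 or 8 or sucrose/oleate replicate 1, 4 or 8 (adjusted p up to 0.0629). It was the 1 call among the 18 tested members of the natural killer and cytotoxic list, whose median was -0.35; DESeq2 called 3 and limma 1. Klrc1 and Klrd1, which pair as the NKG2A and CD94 receptor for a nonclassical class I molecule, had differences of -0.71 ± 0.23 and -0.53 ± 0.19 that did not pass (adjusted p = 0.0730 and 0.0875). Gzma, a granzyme, had nearly equal medians of 45.5 and 46.7 (-0.42 ± 0.25, adjusted p = 0.297), with 177 counts in sucrose/oleate replicate 2.

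Tlr5, the receptor for bacterial flagellin, was higher with palmitate. It ran from 50.9 through 79.2 to 135, against 33.6, 46.7 and 69.3 with oleate, and all 8 palmitate libraries exceeded the oleate mean. The difference was 0.75 ± 0.22 (adjusted p = 0.0461), lost in 12 of the 17 fits with a library left out, those without sucrose/palmitate replicate 2, 3, 4, 7 or 8 or any sucrose/oleate replicate but 5 and 6 (adjusted p up to 0.130).

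Ccl20, the ligand of Ccr6, and Il12a, a subunit of interleukin 12, were counted near background. Ccl20 had medians of 15.3 and 7.39 and Il12a of 18.7 and 9.51, while the negative control probes averaged 8.38 scaled counts with palmitate and 6.88 with oleate (exact permutation test of the means, p = 0.132). The differences were 0.85 ± 0.25 and 0.86 ± 0.23 (adjusted p = 0.0436 and 0.0316), and for each gene 6 of 8 palmitate libraries lay above all oleate libraries. Unscaled, the negative controls averaged 8.19 and 6.71 (exact permutation test, p = 0.0233), and no test was run on subtracted values. With each library's negative control mean subtracted before scaling, the group means with palmitate and oleate went from 15.1 and 8.18 to 6.70 and 1.80 for Ccl20, and from 18.6 and 10.2 to 10.2 and 3.47 for Il12a. The Ccl20 call was lost in 12 of 17 fits with a library left out, all but those without sucrose/palmitate replicate 2 or 6 or sucrose/oleate replicate 3, 6 or 9 (adjusted p up to 0.0940). The Il12a call was lost without sucrose/palmitate replicate 3 or 7 or sucrose/oleate replicate 4, 7 or 8 (adjusted p up to 0.0804).

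The largest differences came from single libraries. Ptgs2, the inducible cyclooxygenase that makes prostaglandins, was at 9674 in sucrose/palmitate replicate 3 and at 30.6 to 82.5 in the other 7, with medians of 42.4 with palmitate and 42.1 with oleate. The fitted difference of 4.58 ± 1.33 (adjusted p = 0.0422) became -0.19 without that library (adjusted p = 0.959) and was also lost without sucrose/palmitate replicate 4 or 8 or sucrose/oleate replicate 1, 3, 4, 7, 8 or 9. Stat4, which carries the interleukin 12 signal, was at 1191 in sucrose/palmitate replicate 4 and at 61.4 or less in the others. The palmitate median, 47.8, was below the oleate median, 55.7, and the difference of 1.70 ± 0.45 (adjusted p = 0.0284) became -0.27 without that library (adjusted p = 0.379), and did not pass without sucrose/oleate replicate 1, 4 or 8 either.

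The same replicate 4 was the highest for Cd46 and C8g. Cd46, a complement regulator found in the mouse mainly in the testis, had 131 counts there and 16.3 to 23.6 in the other palmitate libraries, against 9.49 to 19.4 with oleate. All oleate values were near the negative controls. Its difference went from 1.19 ± 0.31 (adjusted p = 0.0284) to 0.38 without that library (adjusted p = 0.302), and the call was also lost without sucrose/oleate replicate 4 or 8. C8g, the gamma chain of complement C8, reached 132 in that library, 53.1 in the next highest (replicate 8) and 26.9 at the highest with oleate. The difference went from 1.03 ± 0.29 (adjusted p = 0.0343) to 0.53 without it (adjusted p = 0.228), with further losses without sucrose/palmitate replicate 8 or sucrose/oleate replicate 1, 4, 7 or 8. Ncam1, the neural cell adhesion molecule, was at 523 in replicate 3 and 351 in replicate 2, and at 27.8 to 103.3 in the other 6, against 15.5 to 65.5 with oleate. Its difference of 2.28 ± 0.67 (adjusted p = 0.0453) was 1.69 without replicate 3 (adjusted p = 0.144) and 2.00 without replicate 2 (adjusted p = 0.0905), and it did not pass without sucrose/palmitate replicate 4 or 8 or sucrose/oleate replicate 1, 3, 4, 7, 8 or 9.

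**Figure D3:**
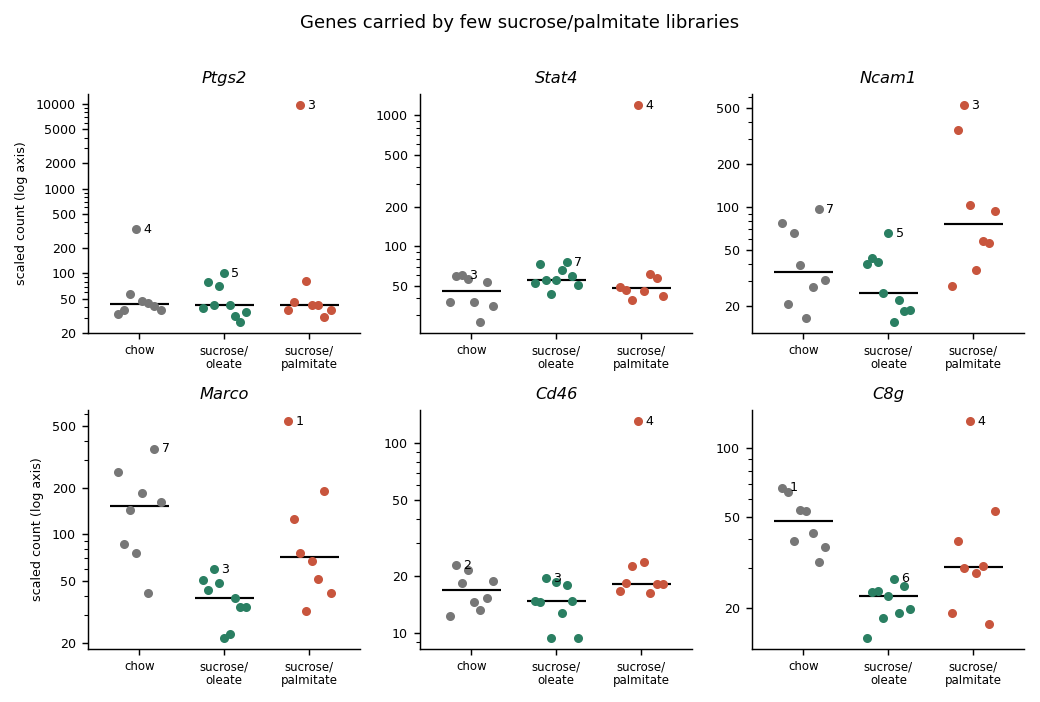
Scaled counts (log axis, 1 panel per gene) of 6 called genes with 1 or 2 high sucrose/palmitate libraries, for chow (8), sucrose/oleate (9) and sucrose/palmitate (8). Each point is a library, each horizontal line a group median, and the number beside a point is the replicate number of the group's highest library. Replicate 3 stands at 9674 for Ptgs2 and replicate 4 at 1191 for Stat4.

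Some genes of epithelium were high in the same libraries. Of the 9 tested epithelial genes 0 passed in edgeR (2 with an unadjusted p below 0.05), DESeq2 called 2 higher and limma 0, and the median was 0.94. Muc1, a mucin, was at 75.5 in sucrose/palmitate replicate 4, and Defb14, a defensin, at 168 in replicate 4 and 85.6 in replicate 2, with medians of 7.89 and 7.91 for the 2 diets. Cd24a, a surface protein of epithelium and of immature lymphocytes, was at 2370.4, 1439 and 1351 in replicates 3, 8 and 2, against at most 1043 with oleate. The defining markers Defb1, Pigr, Ceacam1 and Cxcl15 summed to 162 to 330.03 with palmitate and 151 to 247 with oleate, none of the 4 passed, and each averaged above the negative controls with both fats. This sum was 330.03 in sucrose/palmitate replicate 2 and 246.7 in replicate 3. In replicate 4, the highest for Muc1 and Defb14, it was 162.3, near the lowest of the group (162.2 in replicate 5). Defb1, an epithelial defensin, was at 117.9 in replicate 2 and 62.5 in replicate 3 and at most 20.4 in the other palmitate libraries. The part of epithelium in the calls was not tested.

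The adipocyte list gave 0 of 4 calls in edgeR (1 with an unadjusted p below 0.05), in DESeq2 and in limma. Cfd, the adipokine adipsin, ran from 9299 through 20128 to 74784 with palmitate and from 5851 through 9199 to 32851 with oleate, with the highest counts in sucrose/palmitate replicates 8, 7 and 5. Its difference of 1.12 ± 0.43 did not pass (adjusted p = 0.106). Without sucrose/oleate replicate 6 it was 1.40 and passed (adjusted p = 0.0458). Pparg, the master regulator of fat cells, had a difference of 0.20 ± 0.15 (adjusted p = 0.408), and Cd36, a fatty acid carrier, -0.26 ± 0.14 (adjusted p = 0.246).

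Of the 18 tested members of the classical inflammatory cytokine list, 2 were higher and 0 lower, with a median of 0.07. The 2 were Il12a, counted near background, and Ptgs2, a cyclooxygenase whose call came from a single library. Tnf was at medians of 30.1 and 31.6 with palmitate and oleate, a difference of -0.13 ± 0.25 with a 95% interval from -0.64 to 0.38. Il1b, at 25.3 and 23.3, differed by -0.52 ± 0.45 (interval -1.43 to 0.40), and Il6, near the negative controls at 11.3 and 9.72, by 0.19 ± 0.26 (interval -0.34 to 0.71). None of the 3 passed (adjusted p from 0.519 to 0.799). The Il1b difference was 0.38 without sucrose/oleate replicate 2, which held 199 counts (adjusted p = 0.566).

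Of 30 tested complement genes 2 were higher (Cd46 and C8g, both highest in sucrose/palmitate replicate 4) and 0 lower in edgeR, with a median of 0.05; limma called 0. Cfb, factor B of the alternative pathway, had medians of 1973 and 2273 and a difference of -0.42 ± 0.13 (adjusted p = 0.0575). C4bp, an inhibitor of the classical pathway, was at 480.2 in sucrose/palmitate replicate 2 and at most 25.7 with oleate (3.02 ± 1.16, adjusted p = 0.106). C3, the central component, had medians of 5710.4 and 6715 and a difference of -0.24 ± 0.16 (adjusted p = 0.357). T cell genes gave 0 calls of 22 in edgeR, in DESeq2 and in limma, with 1 unadjusted p below 0.05 and a median of -0.00. Class II genes, which present antigen to them, gave 0 of 10 in the same 3 tools (1 unadjusted), with 9 of 10 positive; H2-Eb1, a class II beta chain, had medians of 1257 and 881 (0.51 ± 0.22, adjusted p = 0.141).

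The starch diets offer the same fat comparison in libraries that share none with the sucrose groups. The ratio of controls A and B moved with the fats there too, but the other way. It ran from 2.92 to 3.16 on starch/palmitate and from 3.11 to 3.28 on starch/oleate. With starch 160 genes differed between palmitate and oleate (32.6%), 41 higher (8.35%) and 119 lower (24.2%), and the median over all genes was -0.13. With the ratio as a covariate 167 genes differed. Of the 18 genes called with sucrose, 14 had the same sign with starch (77.8%, against 68.0% of all 491 genes) and 10 were called in the same direction, which is 55.6% of the 18 and 6.25% of the 160. The 10 were Tgfbr1, Lair1, Klra8, Runx1, Tnfaip3, Itgb1, Ccl24, Tlr5, Cd46 and C8g, and 0 of the 18 were called in the opposite direction. Tgfbr1 differed by -0.67 ± 0.13 with starch (adjusted p = 0.000275), close to its -0.61 with sucrose, and Klra8 by -1.39 ± 0.24 (adjusted p = 4.81e-05). Ccl24 differed by 0.73 ± 0.22 (adjusted p = 0.0116). Cd209g, at 0.24 ± 0.23, and Plau, at -0.29 ± 0.14, did not pass with starch (adjusted p = 0.462 and 0.0890), yet the test of the difference between carbohydrates did not pass for them either (adjusted p = 0.334 and 0.660).

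**Figure D4:**
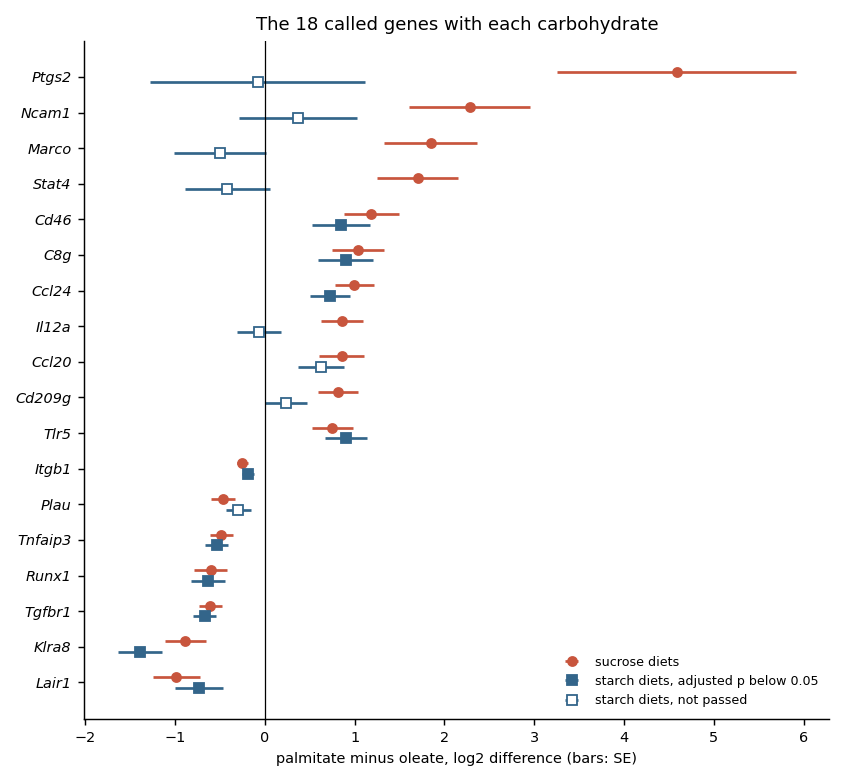
Palmitate minus oleate (log2, horizontal axis; bars are 1 SE) for the 18 genes called with sucrose, shown for the sucrose diets (circles) and the starch diets (squares, filled where the adjusted p was below 0.05). The 7 lower genes lie left of 0 with both carbohydrates, and Ptgs2, Stat4, Marco and Il12a lie right of 0 with sucrose only.

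Whether the fat difference depended on the carbohydrate was tested for each gene as the difference with sucrose minus the difference with starch. It did so for 27 genes (5.5%), 20 of them with a positive (4.07%) and 7 with a negative value (1.43%), and among the 18 called genes for Stat4 and Marco alone. Among the gene lists, which were chosen with earlier results of these data known, the B cell list had the most calls. Of the 18 tested members of that list 6 passed this test, although 0 of 18 passed within the sucrose diets in edgeR (6 with an unadjusted p below 0.05, all higher; DESeq2 called 1 and limma 0). With starch 10 of the 18 were lower with palmitate.

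Cd79b, a chain of the B cell receptor, ran from 37.8 through 75.2 to 259 on sucrose/palmitate and from 14.2 through 47.5 to 78.1 on sucrose/oleate, with 4 palmitate libraries above every oleate library. On starch/palmitate it ran from 23.6 through 52.3 to 112, and on starch/oleate from 47.8 through 109 to 179.6. The fat differences were 1.12 ± 0.36 with sucrose (adjusted p = 0.0584) and -1.03 ± 0.37 with starch (adjusted p = 0.0314), and they differed from each other by 2.15 ± 0.52 (adjusted p = 0.0153). Ms4a1, the CD20 antigen, gave 1.12 ± 0.41 and -1.08 ± 0.43, a difference of 2.20 ± 0.60 (adjusted p = 0.0228), and Pax5, the factor that fixes B cell identity, a difference of 1.76 ± 0.49 (adjusted p = 0.0240). The summed B cell markers were highest in sucrose/palmitate replicates 7, 1 and 8 (844, 603 and 466), against at most 283 on sucrose/oleate. Summed lymph node markers (Ccl19, Cxcl13, Cr2, Cxcr5 and Ccr7) reached 1424 and 1404 in sucrose/palmitate replicates 1 and 7, followed by 401 in replicate 2. Replicates 1 and 7 were also the highest of that group for Marco (540 and 190). The largest lymph node sum was 5687, in sucrose/oleate replicate 2, whose B cell sum was 181. Whether lymph node tissue contributed to these values was not tested. Without sucrose/palmitate replicate 7 the values of Ms4a1 and Pax5 were 1.87 and 1.57 and did not pass (adjusted p = 0.0533 for both). With the assay ratio as a covariate 0 of 491 genes passed this test, while the value of Cd79b was 2.84 (adjusted p = 0.0559).

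Of the other genes, Tfrc, the transferrin receptor, had nearly equal medians on the sucrose diets, 804 with palmitate and 797 with oleate, but 893 and 2542 on the starch diets. The difference between carbohydrates was 1.40 ± 0.28 (adjusted p = 0.00274). Il1a, an alarm cytokine counted near background, had medians of 13.7 and 9.48 on the sucrose diets and 5.29 and 20.2 on the starch diets (1.83 ± 0.42, adjusted p = 0.0105). Cd1d1, a class I-like molecule that displays lipids to natural killer T cells, was at 6157 and 5007 on the sucrose diets and at 5769 and 2051 on the starch diets (-1.19 ± 0.29, adjusted p = 0.0166). Of the 4 diets, starch/oleate had the highest median of Tfrc and Il1a and the lowest of Cd1d1. Only sucrose libraries were left out singly, so how far these values rest on single starch libraries was not tested.

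**Figure D5:**
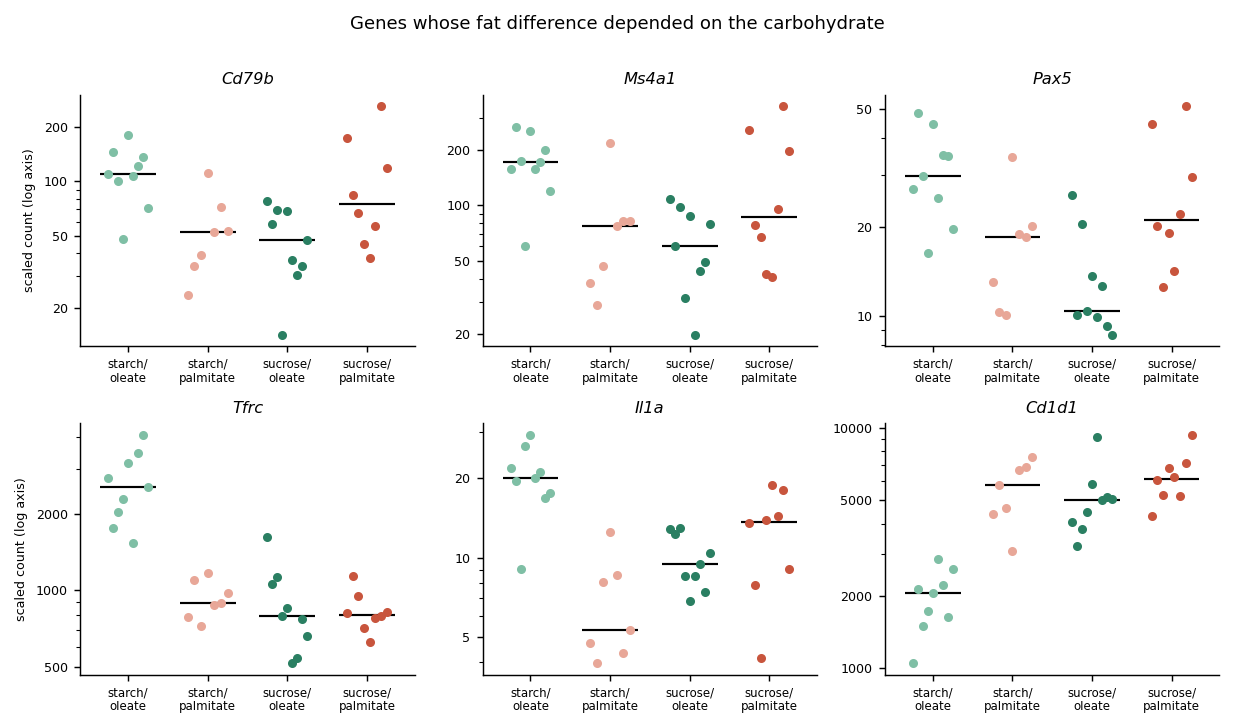
Scaled counts (log axis, 1 panel per gene) of 6 genes whose fat difference depended on the carbohydrate, for starch/oleate (9), starch/palmitate (7), sucrose/oleate (9) and sucrose/palmitate (8). Each point is a library and each horizontal line a group median. For Cd79b, Ms4a1 and Pax5 the palmitate median lies below oleate with starch and above it with sucrose; for Tfrc the medians are 2542 and 893 with starch and 797 and 804 with sucrose.

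Against chow, 84 genes differed on sucrose/palmitate (17.1%), 73 higher (14.9%) and 11 lower (2.24%), and 180 on sucrose/oleate (36.7%), 142 higher (28.9%) and 38 lower (7.74%). The comparisons share the 8 chow libraries and are given side by side only. The ratio of controls A and B ran from 3.17 to 3.39 on chow. That is above every sucrose/oleate library (3.07 at the highest) and inside the sucrose/palmitate range (2.99 to 3.56). With the ratio as a covariate 40 genes differed from chow with palmitate and 31 with oleate. Diet and ratio do not overlap between chow and oleate and could not be told apart there. All 7 genes lower with palmitate, but only 4 of the 11 higher ones, had a palmitate mean between chow and oleate. These genes were selected for a gap between the fats in the same sucrose libraries. Of the 7 lower genes, 6 passed against chow with both diets. Neither the in-between position nor passing with both diets was counted over all genes tested. Lair1 stood 1.04 ± 0.27 above chow with palmitate and 2.02 ± 0.27 with oleate (adjusted p = 0.0121 and 3.2e-07). For Tgfbr1 the same values were 0.73 ± 0.13 and 1.34 ± 0.13 (adjusted p = 0.000503 and 6.85e-11), and for Klra8 0.74 ± 0.24 and 1.63 ± 0.24 (adjusted p = 0.0341 and 2.2e-06). Itgb1 was the exception, at 0.00 ± 0.06 with palmitate (adjusted p = 0.994) and 0.25 ± 0.06 with oleate (adjusted p = 0.00119).

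Of the 11 genes higher with palmitate, 5 were below chow on sucrose/oleate and did not pass against chow on sucrose/palmitate. They were Ccl24, Cd209g, Marco, Tlr5 and C8g. Ccl24 averaged 244 on chow, 211 on sucrose/palmitate and 106 on sucrose/oleate, with differences from chow of -0.21 ± 0.22 (adjusted p = 0.524) and -1.20 ± 0.22 (adjusted p = 3.29e-05). Cd209g averaged 306, 255 and 145 (-0.26 ± 0.23 and -1.07 ± 0.22, adjusted p = 0.429 and 0.000232). Cfd, which did not differ by the test between the fats, was below chow with both, by -1.25 ± 0.45 with palmitate (adjusted p = 0.0476) and -2.37 ± 0.44 with oleate (adjusted p = 6.46e-05).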

How the data were processed

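Epididymal fat RNA was measured on the nCounter Mouse Immunology panel, and the deposited table holds raw probe counts: per its values, whole numbers not scaled between samples. The counting software is not given in the sources used here. The table has 547 endogenous genes, 14 reference genes, 8 negative and 6 positive controls; the reference genes are the gene probes listed after the alphabetical block, and 0 columns were without a sample.

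Each library was divided by the geometric mean of its 14 reference genes. The 491 genes averaging 10 or more counts across the 48 libraries were fitted together, with a mean per diet, in edgeR 4.0.16 (glmQLFit, glmQLFTest, R 4.3.3). The 48 include the 7 Western diet libraries, which enter the count filter and the shared estimate of spread. For each of 5 comparisons, two-sided p-values were adjusted by Benjamini-Hochberg across all genes fitted, with a threshold of 0.05. Errors are SE of log2 differences derived from the F statistic. Alternatives used DESeq2 1.42.0, limma 3.58.1 (log2 of scaled count plus 1), TMM scaling, other filters and left-out libraries. Symbols follow the table (Emr1 is now Adgre1); 490 of 491 matched RefSeq. No 2 libraries of the 17 were copies (lowest chi-square per degree of freedom 5.14 over 136 pairs). The labels do not say how replicates were housed or processed, so p-values measure only the spread between these samples, which may be technical.

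The members, gene lists, motifs and tests were chosen with earlier results of these data known. Genes named come from a rule: all called genes up to 20 each way, the 5 smallest p and 3 highest levels of each list, a list of genes always reported, and the 10 smallest p of the carbohydrate test. The text names a subset of these, picked after their values were seen. The epithelial markers Ceacam1 and Cxcl15 are named outside the rule, as members of a summed marker list, and 1 gene that falls under the rule is left out and not reported here.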

Additional observations from a re-analysis of the deposited data

Results flagged for a closer look

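In the 68 genes examined, 22 of the 136 groups of 8 or 9 libraries held a library far from the others. Chance marks about 5% of independent, unselected groups, but these genes were partly chosen for single high libraries, and 9 of the 22 are the same library, so that share is no fit comparison. Sucrose/palmitate replicate 4 stood apart in C8g (131.9), Cd46 (131.1), Stat4 (1191) and Muc1 (75.5 scaled counts), and replicate 3 in Ptgs2 (9674) and Gata3 (1063), a transcription factor of T cells and some epithelia. Replicate 1 stood apart in Marco (540.4) and replicate 2 in C4bp (480.2). Replicate 7 stood apart in Cxcr5 (41.9), Cd3e (87.2) and Tnfrsf17 (75.9), genes of lymphocytes.

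Sucrose/oleate replicate 2 stood apart in 9 genes. It was the highest of its group for Cd163 (1228), Ccl8 (8751), Gzma (176.9), C3 (14026), Il1b (199.2), Icam1 (586.5), S100a9 (2051) and Cxcl13 (5490.3), and the lowest for Fn1 (3103). Without this library the difference between the fats went from -0.34 to 0.18 for Ccl8, from -0.52 to 0.38 for Il1b, from -1.79 to 0.27 for S100a9 and from -0.76 to 2.06 for Cxcl13, a B cell chemokine; of these 4 only Cxcl13 passed (adjusted p = 0.0459). Sucrose/oleate replicate 6 was low for Foxp3 (1.41) and high for Cd1d1 (9144).

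The fat difference with sucrose differed from that with starch, by a test of the difference itself, in 14 of the genes named. On the log2 scale the values, sucrose minus starch, were 2.34 for Marco, 2.12 for Stat4, 2.15 for Cd79b, 2.20 for Ms4a1, 1.76 for Pax5, 1.03 for Kit, 0.86 for Tnfrsf17, 1.40 for Tfrc and 1.83 for Il1a. They were 0.41 for Ski, 0.53 for Cd99, 0.52 for Notch2, -1.19 for Cd1d1 and -3.93 for H2-Q10. For Stat4 the value was 0.15 without sucrose/palmitate replicate 4 (adjusted p = 0.772), and for Marco 1.58 without replicate 1 (adjusted p = 0.209).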

How the results depend on the processing

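The counts of 11 higher and 7 lower genes became 20 and 20 with TMM scaling, 16 and 13 with DESeq2, 2 and 7 with limma, 1 and 0 with the control ratio as a covariate, 30 and 91 with the mean of the B cell list as a covariate, and 0 and 0 with the 4 palmitate libraries of ratio below 3.2. They were 8 and 7 with only the compared groups in the fit, which kept 10 of the 18 calls and lost C8g, Cd209g, Cd46, Il12a, Plau, Ptgs2, Runx1 and Stat4, and 9 and 9 without Gusb. They were 4 and 2 without sucrose/palmitate libraries 3 and 4. The labels do not say that replicate numbers pair libraries, and pairing was not tested. The mean correlation was -0.06 over 8 same-numbered pairs (-0.62 to 0.22) and 0.01 over 64 others. The replicate block gave 1 and 1, Ccl24 and Tgfbr1. Leaving out each of the 17 sucrose libraries in turn gave 1 to 16 higher and 1 to 17 lower genes. The 27 genes that depended on the carbohydrate became 0 with the ratio, 9 with the B cell covariate, 15 with the low-ratio libraries and 19 to 31 with a sucrose library left out. The B cell covariate is the average of that list's own tested genes, and 6 of the 27 belong to the list. Its members are thus adjusted for their own average, and a loss of their calls decides nothing about them. No starch or chow library was left out singly. The 160 starch genes became 49 with the B cell covariate and 121 without the libraries high in epithelial genes, where the carbohydrate test gave 26. The 84 genes against chow with palmitate became 55 with the replicate block, 40 with the ratio, 8 with the B cell covariate, 32 with the low-ratio libraries and 23 to 104 with a library left out; the 180 with oleate became 31 with the ratio. Signs reversed for Ptgs2 (-0.18 with the ratio, -0.45 with the low-ratio libraries, -0.40 without libraries 3 and 4), Stat4 (-0.24 with DESeq2, -0.40, -0.19 and -0.23 in the same 3 settings, and -0.84 for its carbohydrate test with the ratio), Defb14 (-0.57 with the ratio, -0.31 with the low-ratio libraries), Cd3e (0.062 with the ratio), Ccl8 (0.11 with limma) and Cxcl13 (0.33 with the block, 1.95 with DESeq2, 0.61 with limma). With a library left out, values ran from -0.19 to 4.77 for Ptgs2, -0.27 to 1.86 for Stat4, -0.58 to 0.18 for Ccl8, -0.68 to 0.38 for Il1b, -2.15 to 0.27 for S100a9 and -1.29 to 2.06 for Cxcl13. The causes were not tested. Alternatives with limma, the low-ratio libraries, libraries 3 and 4, epithelial libraries and Gusb were added after seeing the data. Of the single-gene values recomputed, 1833 kept direction and side of the threshold, 253 lost it, 71 gained it and 21 reversed. Counts near the negative controls (mean 7.51) limit Ccl20, Il12a, Il1a, Il6, Foxp3 and Cd46.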

Other observations

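Interleukin receptors gave 0 calls of 30 in edgeR (2 higher and 5 lower at an unadjusted p below 0.05), while DESeq2 called 1 higher and 2 lower and limma 0. Il10rb, a shared chain of the interleukin 10 receptor family, had a difference of -0.43 ± 0.13 (adjusted p = 0.0533). In the dendritic cell and costimulation list edgeR and limma called 0 of 13 (2 higher and 2 lower at an unadjusted p below 0.05) and DESeq2 1; Cd83, a marker of mature dendritic cells, had a difference of -0.63 ± 0.22 (adjusted p = 0.0822). Interferon response genes gave 0 of 25 in the 3 tools, with 1 unadjusted p below 0.05 and a median of -0.15. Mast cell, basophil and eosinophil genes gave 0 of 6 in the 3 tools, with 3 higher at an unadjusted p below 0.05. Among them Kit, the stem cell factor receptor of mast cells, had a difference of 0.54 ± 0.20 with sucrose (adjusted p = 0.106) and -0.49 ± 0.21 with starch (adjusted p = 0.0692). Foxp3, the regulatory T cell factor, was counted near background at medians of 6.45 and 12.7 (-0.52 ± 0.30, adjusted p = 0.271).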
